A study of Mus musculus with 30 samples.

Results

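Mammary tumours from MMTV-PyMT mice that had received KCL-HO-1i together with 5-fluorouracil (5-FU) were compared with tumours from mice that had received vehicle, using 10 of the 30 bulk RNA sequencing libraries of the series. All animals carried the transgene of FVB/N-Tg(MMTV-PyVT)634Mul/J, in which the mouse mammary tumour virus promoter drives the polyoma middle T antigen in mammary epithelium, and the genotype was labelled WT in every group. The combination group was made of 5 tumours from mice given KCL-HO-1i at 25 µmol/kg daily and 5-FU at 40 mg/kg every 4 days by intraperitoneal injection, and the vehicle group of 5 tumours from mice given neither drug. The labels gave 72 hours of treatment before collection, and the paper describes a shorter treatment. The 5 libraries of 5-FU alone and the 5 of KCL-HO-1i alone, at the same labelled doses, were used where the combination was set against its parts. Ages of the animals were not given in the sources used here. The comparison addresses how the tumour tissue differs when the enzyme inhibitor and the chemotherapy are given together.

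Heme oxygenase-1, the product of Hmox1 and the target of KCL-HO-1i, opens the heme ring and releases biliverdin, carbon monoxide and ferrous iron. In tumours the enzyme is found mainly in macrophages, which recycle the heme and iron of dying cells, and its gene is under the repressor BACH1 and the activator NRF2, both of which respond to heme or to oxidants. The iron set free is stored in ferritin or exported by ferroportin. 5-FU is a pyrimidine analogue whose products block thymidylate synthase and enter RNA and DNA, and it acts on cells that are copying their genome.

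The 10 libraries held 10874742 to 13482304 counts each, and the totals did not separate the groups (two-sided exact permutation p = 0.421, n = 5 in each group). CPM values (counts scaled to a common library total) are here scaled to the effective library size, and 3 reads correspond to 0.218 to 0.2818 CPM. Epcam was measured at 619 to 1408 CPM, Krt8 at 567 to 1611 CPM and Krt18 at 459 to 1153 CPM, so each library carried the epithelial markers of a mammary tumour. A pair of libraries stood apart. In combination replicate 3, 953 genes were at least 2-fold above all 9 other libraries, and it had the lowest Epcam, Krt8 and Krt18. In vehicle replicate 3, 719 genes were at least 2-fold below the 9 others, and its skin epidermis and hypoxia levels were the highest of the 10. Each library has its own animal code in the labels. The leading numbers of these codes (4 in the vehicle group and 3 in the combination) were not shared between the groups, so whatever they stand for and the treatment cannot be told apart.

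Across the 13663 genes tested, 0 passed an adjusted p under 0.05 in edgeR (0%), where the smallest adjusted p was 0.0829 and 2409 genes had an unadjusted p under 0.05 (17.6%). Without combination replicate 4 the count was 186, and without any other single library it was 0 to 2. With the replicate number as a block it was 3, of which 1 was higher (0.00732%) and 2 were lower (0.0146%). DESeq2 called 279 genes higher (2.04%) and 129 lower (0.944%), and limma-voom with sample quality weights called 58 higher (0.425%) and 111 lower (0.812%). These sets shared 125 genes, 30.6% of the DESeq2 calls and 74% of the limma-voom calls. At the limits of the study, read here as a log2 fold change beyond 0.6 with an unadjusted p under 0.05 in edgeR, 1023 genes were higher in the combination (7.49%) and 379 were lower (2.77%). Below, "past the limits" means this unadjusted call. Without combination replicate 3 these counts were 413 (2.99%) and 274 (1.98%), with 363 and 243 genes shared with the full comparison, and without both replicates 3 they were 254 (1.84%) and 151 (1.1%). Without vehicle replicate 3 they were 766 (5.54%) and 257 (1.86%). The 5 combination libraries lay entirely above the 5 vehicle libraries for 209 genes (1.53%) and entirely below them for 283 genes (2.07%), and 150 (1.1%) and 67 (0.49%) of these were also past the limits.

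**Figure D1:**
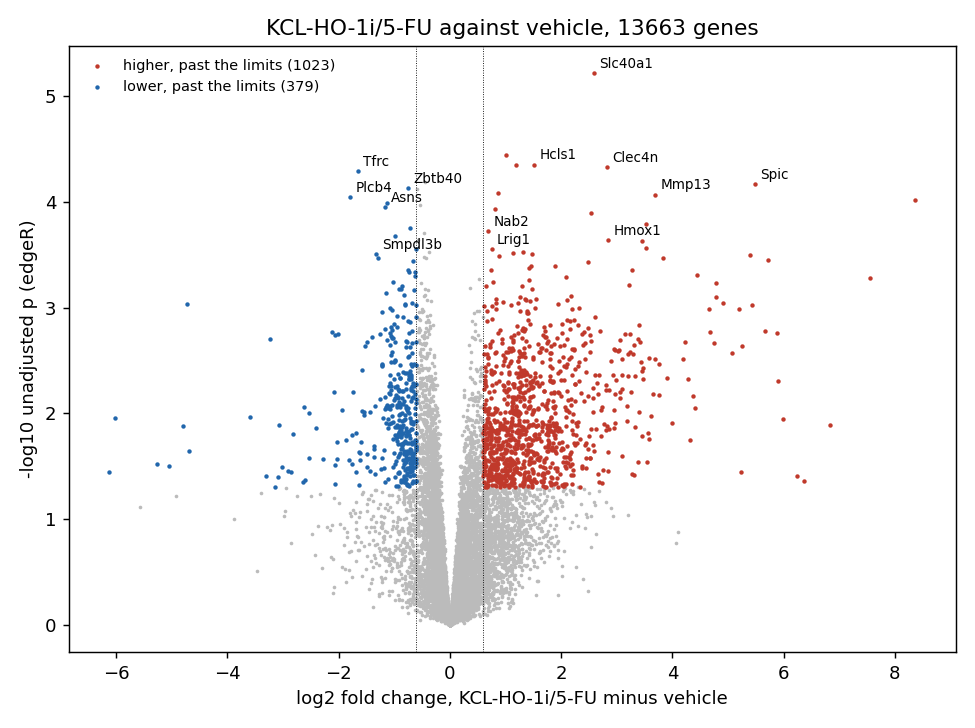
Each point is 1 of the 13663 genes tested, with the log2 fold change (combination minus vehicle) on the x axis and the -log10 of the unadjusted edgeR p on the y axis. The 1023 higher genes past the limits are red and the 379 lower genes blue, and Slc40a1 and Tfrc are the uppermost named points on the right and left.

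The gene with the smallest p was Slc40a1 (chromosome 1, 45908070 to 45926532, GRCm38), which encodes ferroportin, the iron exporter of macrophages. It was measured at 15.8, 14.2, 8.18, 16 and 11.8 CPM in vehicle replicates 1 to 5 and at 34.9, 40.7, 250, 45.9 and 24.3 CPM in combination replicates 1 to 5. All combination libraries lay above all vehicle libraries, and replicate 3 was far above the rest. The log2 fold change was 2.58 (SE 0.46, edgeR adjusted p = 0.0829, DESeq2 adjusted p = 1.4e-05), and without combination replicate 3 it was 1.47.

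Tfrc (chromosome 16, 32608896 to 32632794), the transferrin receptor through which cells take up iron, went the other way. It was measured at 106, 151, 433, 127 and 169 CPM in vehicle and at 79.2, 52.9, 34.6, 73.9 and 73.6 CPM in the combination. The groups did not overlap, and the vehicle library at 433 CPM was replicate 3. The log2 fold change was -1.65 (SE 0.34, edgeR adjusted p = 0.0876, DESeq2 adjusted p = 0.00176). Without vehicle replicate 3 it was -1.145, and without both replicates 3 it was -0.99.

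Slc40a1, Tfrc and the ferritin subunits share a short RNA hairpin, the iron-responsive element, to which iron regulatory proteins bind when iron is scarce. Bound in the 5′ UTR it holds back translation, and bound in the 3′ UTR it protects the message from decay. The pattern searched had a paired upper stem of 5 bases and a lower stem of 5 bases with at most 1 unpaired. Between the stems was an unpaired C, and the loop was CAGTG followed by A, C or T. G opposite T was counted as a pair. This pattern was present in protein-coding transcripts of 24 of 21877 genes in GENCODE M21 (0.11%), and in 4 of the 19 genes of the iron list. The elements are shown because the genes with the smallest p in each direction, Slc40a1 and Tfrc, both carry them, at opposite ends of the transcript. The loop is in capitals.
Slc40a1, 5′ UTR, minus strand, chr1:45925466-45925492: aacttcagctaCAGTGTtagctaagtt
Fth1, 5′ UTR, plus strand, chr19:9982733-9982759: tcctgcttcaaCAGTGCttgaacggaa
Ftl1, 5′ UTR, minus strand, chr7:45459780-45459806: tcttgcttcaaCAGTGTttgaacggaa
Tfrc, 3′ UTR, plus strand, chr16:32631220-32631246: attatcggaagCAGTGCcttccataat
Tfrc, 3′ UTR, plus strand, chr16:32631599-32631625: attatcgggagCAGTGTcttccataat
Tfrc, 3′ UTR, plus strand, chr16:32631664-32631690: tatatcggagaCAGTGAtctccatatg
Tfrc, 3′ UTR, plus strand, chr16:32631711-32631737: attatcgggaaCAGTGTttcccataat

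Coordinates are on GRCm38. Transcript levels were measured here and not protein, so translation through the 5′ UTR elements was not observed. Fth1, the heavy subunit of ferritin, was measured at 2389, 1714, 1880, 1204 and 1386 CPM in vehicle and at 2668, 2536, 7982, 1281 and 2229 CPM in the combination. Its groups overlapped, the log2 fold change was 0.96 (SE 0.36, edgeR adjusted p = 0.179), and without combination replicate 3 it was 0.35. Ftl1, the light subunit, had a log2 fold change of 0.47 (SE 0.24) and was not past the limits.

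Of the 18 iron genes tested, 5 were higher past the limits and 1 was lower, where 7.49% and 2.77% of all genes were, with a median log2 fold change of 0.18 against 0.01 over all genes tested. Besides Slc40a1, Tfrc and Fth1 these were Slc11a1, Steap4 and Slc39a14. Slc11a1, the iron and manganese transporter of the macrophage phagosome, was measured at 2.54, 6.76, 1.23, 5.68 and 1.79 CPM in vehicle and at 8.82, 10.2, 39.1, 11.2 and 7.59 CPM in the combination. Every combination library lay above every vehicle library (log2 fold change 2.09, SE 0.53, edgeR adjusted p = 0.119), and without replicate 3 the value was 1.39. Steap4, a metalloreductase, had a log2 fold change of 1.33 (SE 0.38) and also did not overlap. Slc39a14, an importer of iron and zinc, had one of 0.81 (SE 0.30). Without combination replicate 3 the list had 3 higher and 1 lower, where 2.99% and 1.98% of all genes were.

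Hmox1 (chromosome 8, 75093618 to 75100593) was measured at 32.9, 51.3, 84.7, 59.9 and 18.4 CPM in vehicle and at 189, 63.6, 1198, 222 and 107 CPM in the combination. Of the 5 combination libraries 4 lay above all vehicle libraries, and replicate 2 lay within the vehicle range. The log2 fold change was 2.85 (SE 0.67, edgeR adjusted p = 0.114, DESeq2 adjusted p = 0.00204) and 1.56 without combination replicate 3. Hmox2, the constitutive isoform, was measured at 55.1 to 89.5 CPM in vehicle and 57.7 to 79.4 CPM in the combination, with a log2 fold change of 0.06 (SE 0.11).

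Among the other genes that handle heme, Slc48a1, which moves heme out of the phagolysosome, was higher past the limits at a log2 fold change of 0.60 (SE 0.24), and 0.16 without combination replicate 3. The biliverdin reductases were not past the limits, with log2 fold changes of 0.58 for Blvrb (SE 0.21) and -0.11 for Blvra (SE 0.13). Altogether 2 of 10 heme breakdown and transport genes were higher past the limits and 0 were lower, where 7.49% and 2.77% of all genes were. Without combination replicate 3 the higher count was 1 of 10, where 2.99% of all genes were higher.

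Alas1, the enzyme of the first and limiting step of heme synthesis outside the red cell lineage, was measured at 20.4, 20.1, 20.7, 22.9 and 20.5 CPM in vehicle and at 11.9, 12.4, 12.7, 10.9 and 15 CPM in the combination. All combination libraries lay below all vehicle libraries, replicate 3 among them, and the log2 fold change was -0.73 (SE 0.24, edgeR adjusted p = 0.135). Alas1 was the 1 of 10 heme synthesis genes past the limits, where 2.77% of all genes were lower and 7.49% higher. DESeq2 called 0 of the 10 at an adjusted p under 0.05. Cpox, a later enzyme of the pathway, had a log2 fold change of -0.52 (SE 0.17) and was not past them.

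Set directly against the single treatments, from the same fit and with the same combination libraries in both contrasts, Alas1 was lower than in 5-FU by a log2 fold change of -0.74 (SE 0.24, unadjusted p = 0.00468 in edgeR) and lower than in KCL-HO-1i by one of -0.71 (SE 0.24, unadjusted p = 0.00639). These were -0.74 and -0.71 when combination replicate 3 was left out, both still past the limits. Tfrc gave -0.87 against 5-FU (SE 0.34) and -1.36 against KCL-HO-1i (SE 0.34), and without that library -0.71 (unadjusted p = 0.0502 in edgeR, not past the limits) and -1.20. Slc40a1 gave 1.88 against 5-FU (SE 0.45) and 1.28 against KCL-HO-1i (SE 0.44), each past the limits. With combination replicate 3 left out Slc40a1 gave 0.76 (SE 0.27), still past the limits, and 0.16 (SE 0.27), which was not. Hmox1 was higher than in 5-FU by a log2 fold change of 3.20 (SE 0.68), and against KCL-HO-1i the value of 1.22 (SE 0.63, unadjusted p = 0.0642 in edgeR) was not past the limits. Without that library the Hmox1 values were 1.904 (SE 0.54) and -0.0705 (SE 0.53). Over all genes 446 were higher (3.26%) and 245 lower (1.79%) against 5-FU, and 577 higher (4.22%) and 711 lower (5.2%) against KCL-HO-1i, and 0 passed an adjusted p under 0.05 in either contrast. Without combination replicate 3 the numbers were 219 (1.59%) and 220 (1.59%) against 5-FU, and 389 (2.82%) and 785 (5.68%) against KCL-HO-1i.

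**Figure D2:**
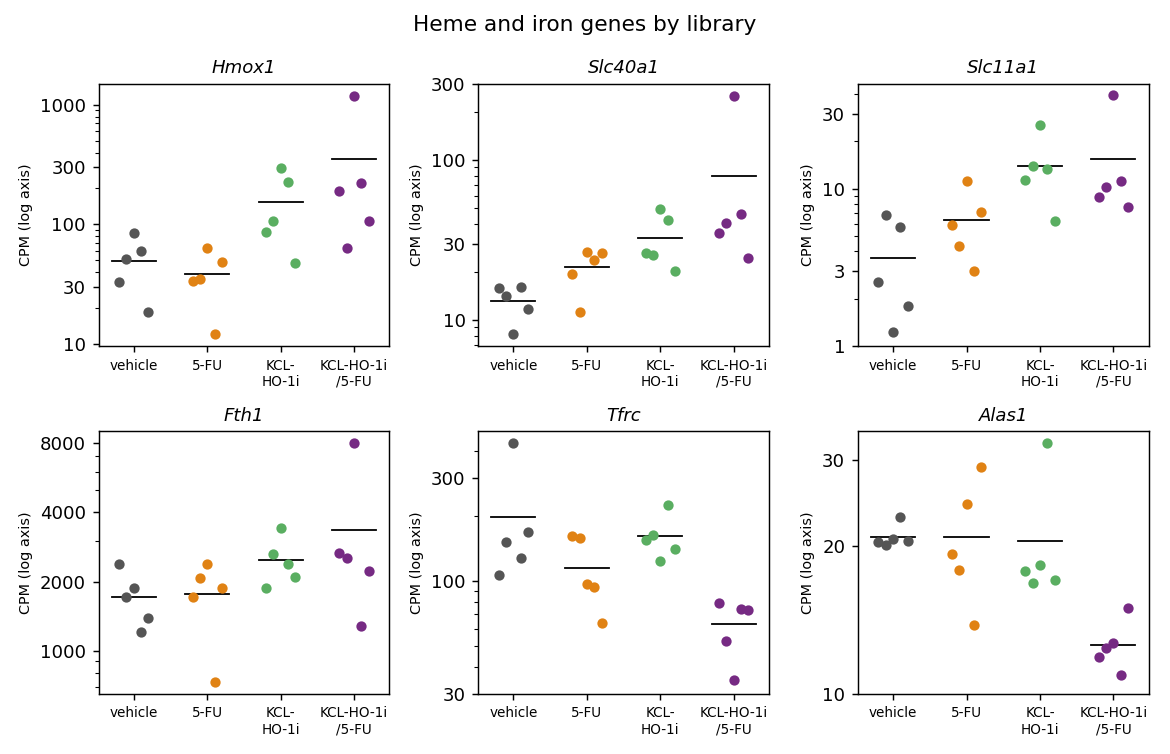
Each point is 1 library, on a log axis of CPM, for 6 heme and iron genes in the vehicle, 5-FU, KCL-HO-1i and KCL-HO-1i/5-FU groups (n = 5 each), and the bar is the arithmetic mean. For Tfrc and Alas1 the 5 combination libraries lie below all vehicle libraries, and for Hmox1, Slc40a1, Slc11a1 and Fth1 the highest combination point is replicate 3.

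Genes of the antioxidant response that NRF2 and BACH1 share with Hmox1 were higher past the limits in 3 of 21 cases and lower in 0, where 7.49% and 2.77% of all genes were, with a median log2 fold change of 0.10. Without combination replicate 3 the count was 1 of 21, where 2.99% of all genes were higher. Nqo1, a quinone reductase, was measured at 85.1, 51.4, 8.71, 47.5 and 45.8 CPM in vehicle and at 131, 117, 104, 79.5 and 127 CPM in the combination. Its log2 fold change was 1.23 (SE 0.49, edgeR adjusted p = 0.194) and 1.25 without combination replicate 3. The other 2, the cystine transporter Slc7a11 and the sulfiredoxin Srxn1, were at log2 fold changes of 1.36 and 0.67, and at 0.37 and 0.25 without that library.

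Of the 39 lists, the macrophage genes had the largest share past the limits in the upward direction, 14 of 20 with 0 lower and a median log2 fold change of 1.14. Over all genes 7.49% were higher. The macrophage count was 8 without combination replicate 3, 11 without vehicle replicate 3 and 3 without both, where 2.99%, 5.54% and 1.84% of all genes were higher. KCL-HO-1i alone gave 10 of the 20 higher than vehicle, where 6.59% of all genes were. Directly compared, the combination had 0 of the 20 higher past the limits than KCL-HO-1i and 1 than 5-FU, where 4.22% and 3.26% of all genes were. Against vehicle, DESeq2 called 3 of the 20 higher at an adjusted p under 0.05, where it called 2.04% of all genes higher. In bulk tissue, a changed number of cells of a type and a changed amount of RNA per cell cannot be told apart. Csf1r, the receptor for the macrophage growth factor, was measured at 37, 52, 14.3, 58.3 and 25.2 CPM in vehicle and at 45.8, 101, 125, 79.3 and 53.7 CPM in the combination, with a log2 fold change of 1.11 (SE 0.38, edgeR adjusted p = 0.147). Combination replicates 1 and 5 lay within the vehicle range, and the lowest vehicle library was replicate 3. Lgmn, a lysosomal protease, had a log2 fold change of 1.37 (SE 0.36), with no overlap between the groups. The complement subunit C1qa had one of 1.24 (SE 0.40), also with no overlap.

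Hcls1, a cortactin-like protein of leukocytes, was measured at 14.1, 12.6, 6.68, 18.9 and 8.48 CPM in vehicle and at 25.8, 31.4, 52.3, 37.9 and 26 CPM in the combination (log2 fold change 1.51, SE 0.31, edgeR adjusted p = 0.0876). Clec4n, the C-type lectin dectin-2, was at 2.46 to 7.21 CPM in vehicle and at 10.4, 14.3, 136, 16.6 and 11.1 CPM in the combination, and its log2 fold change of 2.82 (SE 0.58) was 1.30 without replicate 3.

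Spic, the transcription factor of iron-recycling macrophages, was at 0 CPM in 4 vehicle libraries and at 0.17 CPM in vehicle replicate 4. In the combination it was at 1.28, 1.04, 5.55, 1.48 and 0.313 CPM. No fold is given, since the vehicle values rest on 2 reads in all, but each combination library lay above each vehicle library (edgeR adjusted p = 0.0876). In KCL-HO-1i alone it ran from 0 to 1.12 CPM and in 5-FU alone from 0.0815 to 0.82 CPM, and the combination was past the limits against 5-FU, though not without combination replicate 3 (unadjusted p = 0.117 in edgeR), and not against KCL-HO-1i.

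Perivascular and resident macrophage genes were higher past the limits in 5 of 16 cases and lower in 0, where 7.49% and 2.77% of all genes were. Without combination replicate 3 the higher count was 2 of 16, where 2.99% of all genes were higher. Gas6, the ligand of the TAM receptors that macrophages use to engulf dying cells, was measured at 281, 240, 75, 254 and 282 CPM in vehicle and at 494, 662, 875, 329 and 659 CPM in the combination. The groups did not overlap, and the log2 fold change was 1.41 (SE 0.35, edgeR adjusted p = 0.119) and 1.24 without replicate 3. It was also past the limits against 5-FU, at 0.95 (SE 0.35), and against KCL-HO-1i, at 1.07 (SE 0.35). Gas6 was the 1 of the 16 genes higher past the limits than in KCL-HO-1i, where 4 were lower and the median was -0.73, and KCL-HO-1i alone gave 11 of the 16 higher than vehicle.

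Lyve1 and Mrc1, known markers of perivascular macrophages, were not past the limits. Lyve1 was measured at 1.79, 0.0727, 0.352, 4.24 and 0.818 CPM in vehicle and at 0.754, 1.04, 0.617, 1.98 and 0 CPM in the combination, and the groups overlapped (log2 fold change -0.72, SE 1.25). Mrc1, which encodes CD206, had a log2 fold change of 1.60 (SE 0.88), which was 0.53 without combination replicate 3. Against KCL-HO-1i the Lyve1 value was -3.84 (unadjusted p = 0.00746 in edgeR). White adipocyte and skeletal muscle genes differed in the same contrast, with 16 of 20 and 20 of 22 lower past the limits, where 5.2% of all genes were, and against vehicle 0 of each list was past the limits in either direction. The part of those tissues in the difference from KCL-HO-1i was not tested.

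T cell and cytotoxic genes were sparse, and 16 of the 28 on the list could be tested. Cd8a was measured at 0.564, 0.363, 0.616, 1.53 and 0.967 CPM in vehicle and at 0.754, 0.964, 1.76, 1.4 and 1.25 CPM in the combination, with a log2 fold change of 0.60 (SE 0.64). Gzmb, the protease of cytotoxic granules, was at 1.45 to 3.73 CPM and 2.37 to 5.46 CPM, with one of 0.66 (SE 0.55). Neither difference was detectable at this depth and spread. Of the 16 genes 2 were higher past the limits, where 7.49% of all genes were. These were Ptprc, the pan-leukocyte antigen CD45, at 1.22 (SE 0.38), and Klrd1, a receptor of natural killer cells. The vehicle libraries held at most 0.188 CPM of Klrd1, which is under 3 reads, so no fold is given for it. Without combination replicate 3 the list had 1 higher, and without both replicates 3 it had 0 higher and 1 lower. Over all genes 2.99% were higher without combination replicate 3, and 1.84% were higher and 1.1% lower without both. Of 25 interferon-stimulated genes 0 were past the limits in either direction.

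Of 35 chemokine ligands and receptors tested 11 were higher past the limits and 1 was lower, where 7.49% and 2.77% of all genes were. Without combination replicate 3 the counts were 3 and 0, where 2.99% and 1.98% of all genes were. Without both replicates 3 they were 1 and 0, where 1.84% and 1.1% were. Cx3cr1, a receptor of monocytes and macrophages, was measured at 24, 36.8, 6.07, 37.7 and 19.8 CPM in vehicle and at 45.5, 85.1, 74.6, 68.5 and 32.6 CPM in the combination. Only replicate 5 of the combination lay within the vehicle range, and the log2 fold change was 1.30 (SE 0.38) and 1.22 without combination replicate 3. Cxcl14 had a log2 fold change of 1.51 (SE 0.59) and Cxcl12, the ligand of CXCR4, one of 1.40 (SE 0.68), and these were 1.23 and 0.51 without that library. Ccl21a, a lymphatic chemokine, had 0 reads in all vehicle libraries and was at 1.13, 0.0742, 4.14, 0.0823 and 0.391 CPM in the combination, so 2 of the 5 combination libraries were also under 3 reads.

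Matrix proteases and their inhibitors were higher past the limits in 15 of 25 cases and lower in 0, where 7.49% and 2.77% of all genes were. The median log2 fold change was 1.36. Without combination replicate 3 the higher count was 4 of 25, where 2.99% of all genes were higher. Mmp13, a collagenase of fibroblasts and tumour cells, was measured at 2.16, 3.34, 11.3, 2.29 and 1.71 CPM in vehicle and at 26.5, 12.3, 191, 22.1 and 16.4 CPM in the combination. The groups did not overlap, and the log2 fold change was 3.69 (SE 0.80, edgeR adjusted p = 0.0876) and 2.21 without replicate 3.

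Mmp13 was at 0.815 to 9.67 CPM in 5-FU alone and at 3.01 to 12.5 CPM in KCL-HO-1i alone, where the highest library lay just above combination replicate 2. The combination was higher by a log2 fold change of 3.36 (SE 0.78, unadjusted p = 0.000211 in edgeR) and 3.16 (SE 0.77, unadjusted p = 0.000371). With combination replicate 3 left out these values were 1.88 (SE 0.64) and 1.69 (SE 0.63), both past the limits. Mmp11, stromelysin-3, was at 1.76 to 4.79 CPM in vehicle and at 8.52, 12.5, 27.8, 7.16 and 7.91 CPM in the combination, again without overlap (log2 fold change 1.88, SE 0.47).

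The calls of collagen and fibroblast genes past the limits depended on combination replicate 3, but replicates 1, 2 and 4 were high too. Of 23 collagen genes 8 were higher past the limits, and of 25 fibroblast and pericyte genes 12 were, with 0 lower in both lists. Without combination replicate 3 both counts were 0, with medians of 0.54 and 0.63. Collagen genes above all vehicle libraries made up 47.8%, 60.9%, 91.3%, 56.5% and 8.7% in combination replicates 1 to 5. For fibroblast genes the shares were 40%, 68%, 88%, 48% and 8%, and for all genes 19.4%, 21.6%, 29.1%, 17.8% and 20.1%. Col1a1, for example, was at 34.2 to 237 CPM in vehicle and at 349, 306, 1049, 281 and 54.3 CPM in the combination. KCL-HO-1i alone gave 7 of 23 collagen and 14 of 25 fibroblast genes higher than vehicle, where 6.59% of all genes were. Of 25 blood vessel genes 7 were higher past the limits in the combination, where 7.49% of all genes were. Without combination replicate 3 the number was 1, where 2.99% of all genes were higher. In that library Pecam1 was at 103 CPM against 17.7 to 31.5 CPM in the other combination libraries. Basal and myoepithelial genes were higher past the limits in 6 of 12 cases and in 2 without that library, where 7.49% and 2.99% of all genes were. Among them Krt14 was at 893 CPM in combination replicate 1 and at 48.4 to 245 CPM in the other 4, against 42 to 160 CPM in vehicle. Krt14 lies on chromosome 11 between 100 and 110 Mb, a window that was high in combination replicate 1 as a whole.

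**Figure D3:**
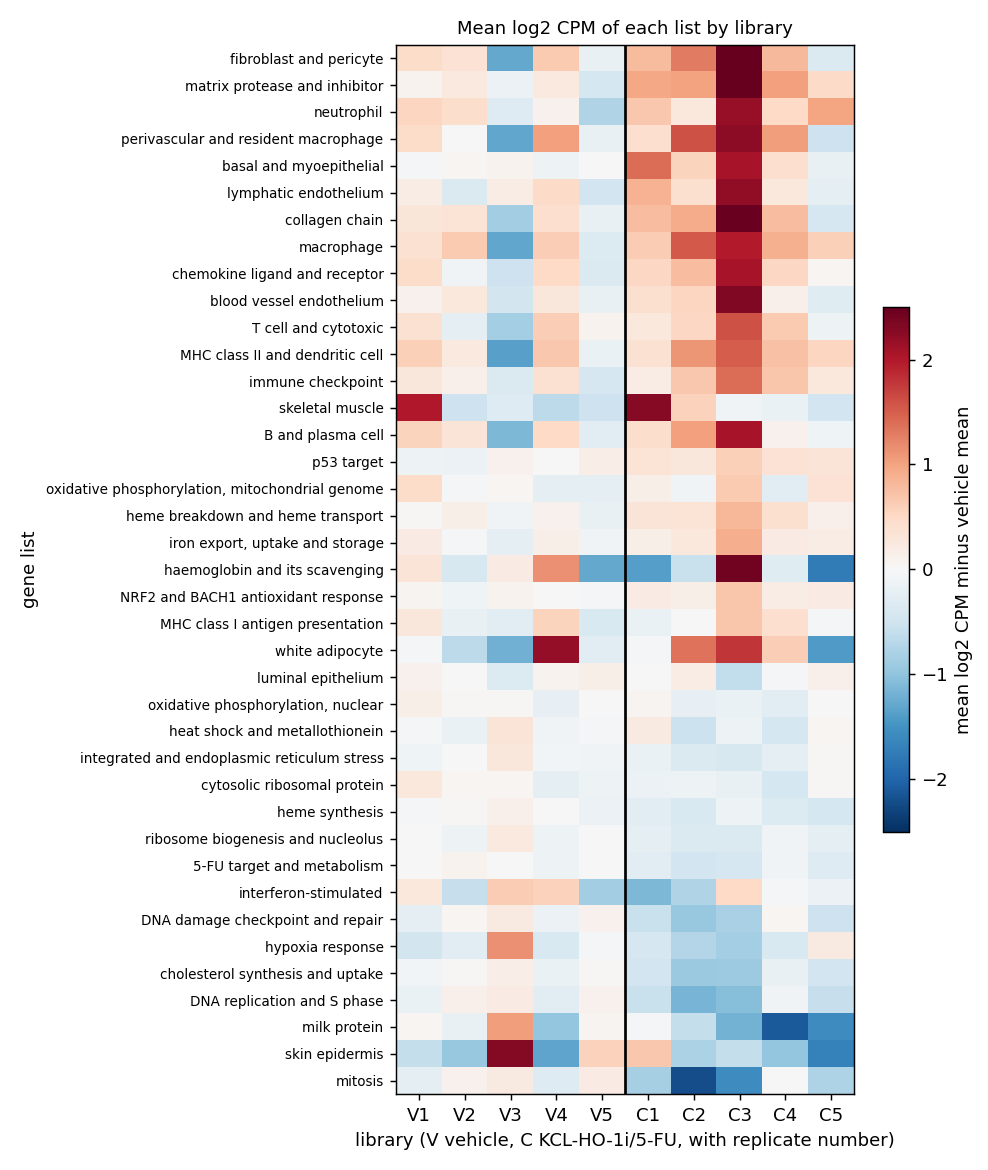
Rows are the 39 gene lists, ordered by their median log2 fold change, columns the 10 libraries, and the colour is the mean log2 CPM of the tested members minus the mean of the vehicle group. Combination replicate 3 (C3) has the highest level in most stromal and leukocyte lists, and combination replicate 4 (C4) lies close to vehicle in the mitosis, replication and DNA damage lists.

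Genes of mitosis gave the largest share of lower calls, 24 of 30 with 0 higher and a median log2 fold change of -0.93, where 2.77% of all genes were lower past the limits. The count was 15 without combination replicate 3 and 9 without both replicates 3, where 1.98% and 1.1% of all genes were lower. DESeq2 called 1 of the 30 lower at an adjusted p under 0.05, where it called 0.944% of all genes lower. The libraries of the combination were unequal. In replicates 1, 2, 3 and 5 the number of the 30 genes below all 5 vehicle libraries was 28, 30, 30 and 28, while in replicate 4 it was 1, with 5 above them. Over all genes tested, 18.2%, 21%, 27.6%, 21.5% and 18.7% lay below all vehicle libraries in replicates 1 to 5. Without replicate 4 all 30 genes were lower past the limits, with a median of -1.31, and without replicate 2 the number was 15.

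Ttk, a kinase of the spindle checkpoint, was measured at 15.8, 13.7, 19, 10.6 and 23.4 CPM in vehicle and at 6.71, 3.41, 5.9, 10.6 and 8.85 CPM in the combination. Its log2 fold change was -1.22 (SE 0.38, edgeR adjusted p = 0.128). Bub1, of the same checkpoint, was at 17.8 to 30.9 CPM in vehicle and at 9.2, 3.78, 6.69, 20.8 and 10.5 CPM in the combination (log2 fold change -1.21, SE 0.38). Foxm1, the transcription factor that drives many mitotic genes, was at 27.6 to 43.9 CPM in vehicle and at 18.2, 7.79, 10.2, 32.2 and 18.6 CPM in the combination (log2 fold change -0.98, SE 0.32). In all 3 genes replicate 4 lay within the vehicle range or at its lowest value, and replicate 2 was the lowest.

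Many mitotic genes carry the cell cycle gene homology region (CHR), the site through which the DREAM and MuvB complexes keep them silent outside division. In RefSeq windows (GRCm38.p6) of 250 bases before to 50 after each start, TTTGAA on either strand was present for 19 of 25 mitosis genes with a window (76%), against 1522 of 10701 tested genes (14.2%). CCAAT on either strand was present for 20 of the 25 (80%), against 42.5%, and TGACNNNGC, the core of the antioxidant response element, for 5 (20%), against 17%. In the 18 antioxidant genes with a window TGACNNNGC was present in 10 (55.6%). A match describes the letters and not a working site. Prc1, which bundles the central spindle, and Ube2c, the ubiquitin carrier of the anaphase-promoting complex, are shown as the 2 lowest-p mitosis genes with the CHR letters in the 250 bases before the start, in capitals.
Prc1, plus strand, chr7:80294226-80294475: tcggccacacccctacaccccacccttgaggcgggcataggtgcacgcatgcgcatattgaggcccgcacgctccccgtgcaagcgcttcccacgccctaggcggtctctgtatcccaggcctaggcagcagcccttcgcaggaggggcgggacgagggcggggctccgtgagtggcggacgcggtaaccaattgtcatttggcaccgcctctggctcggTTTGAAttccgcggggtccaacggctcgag
Ube2c, plus strand, chr2:164769679-164769928: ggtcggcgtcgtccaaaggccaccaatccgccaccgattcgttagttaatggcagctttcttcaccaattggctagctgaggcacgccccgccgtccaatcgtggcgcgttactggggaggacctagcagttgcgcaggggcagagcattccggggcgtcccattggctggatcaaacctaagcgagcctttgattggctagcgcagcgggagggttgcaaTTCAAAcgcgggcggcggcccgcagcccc

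The letters begin 30 bases before the start in Prc1 and 29 in Ube2c, where they are on the opposite strand. Prc1 was at 39.9 to 72.7 CPM in vehicle and at 30.1, 11.1, 18.9, 49.6 and 29.7 CPM in the combination, with a log2 fold change of -0.97 (SE 0.33). Ube2c was at 58.5 to 97.1 CPM in vehicle and at 43.6, 13.6, 22.5, 66.7 and 40.6 CPM in the combination, with one of -1.13 (SE 0.40). In both genes replicate 4 was the single combination library within the vehicle range.

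Genes of DNA replication were lower past the limits in 16 of 37 cases and higher in 0, where 2.77% and 7.49% of all genes were. The median log2 fold change was -0.59. Rrm1, the large subunit of ribonucleotide reductase, was measured at 117, 147, 144, 121 and 177 CPM in vehicle and at 71.6, 54.4, 54, 122 and 71.4 CPM in the combination (log2 fold change -0.92, SE 0.24, edgeR adjusted p = 0.119, DESeq2 adjusted p = 0.0228). Fen1, the flap endonuclease of Okazaki fragments, was at 51.1 to 80.7 CPM in vehicle and at 38.7, 25.1, 21.9, 52.7 and 40.2 CPM in the combination (log2 fold change -0.87, SE 0.23). Mcm10, a replication initiation factor, had one of -1.22 (SE 0.33). The number of the 37 genes below all vehicle libraries was 27, 35, 36 and 21 in replicates 1, 2, 3 and 5, where 18.2%, 21%, 27.6% and 18.7% of all genes were. In replicate 4 it was 4 (10.8%), where 21.5% of all genes were.

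**Figure D4:**
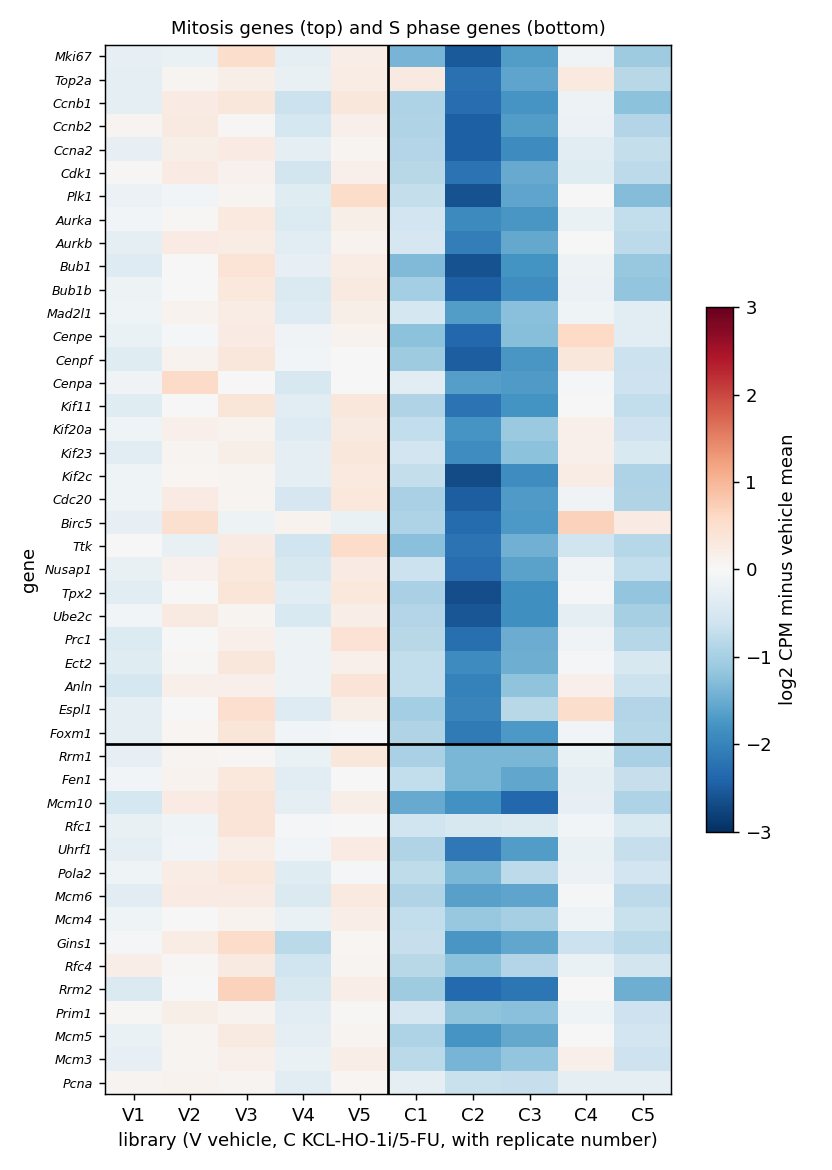
Rows are the 30 mitosis genes (above the line) and the 15 replication genes with the smallest p (below it), columns the 10 libraries, and the colour is log2 CPM minus the vehicle mean of the gene. Replicates 1, 2, 3 and 5 of the combination are blue in nearly every row, deepest in replicate 2, and replicate 4 is close to white.

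Against the single treatments, 24 of 30 mitosis genes were lower past the limits than in KCL-HO-1i and 7 than in 5-FU, where 5.2% and 1.79% of all genes were. For replication genes the numbers were 13 and 15 of 37. With combination replicate 3 left out they were 15 and 2 for mitosis and 8 and 8 for replication, where 5.68% and 1.59% of all genes were lower. Against vehicle, 5-FU alone gave 0 of these genes lower past the limits (0.468% of all genes were lower and 1.19% higher) and KCL-HO-1i alone gave 0 (0.329% lower and 6.59% higher), with medians over the mitosis list of -0.27 for 5-FU and -0.03 for KCL-HO-1i.

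Checkpoint and repair genes of the DNA damage response were lower past the limits in 9 of 31 cases and higher in 0, where 2.77% and 7.49% of all genes were. Without combination replicate 3 the lower count was 7, where 1.98% of all genes were lower. In replicates 1, 2, 3 and 5, 64.5%, 83.9%, 80.6% and 64.5% of these genes lay below all vehicle libraries. In replicate 4 the share was 6.45%, where 21.5% of all genes lay below them. Fanci, of the Fanconi pathway, was at 10.2 to 15.3 CPM in vehicle and at 5.8, 2.89, 4.14, 10.3 and 6.66 CPM in the combination (log2 fold change -1.05, SE 0.29). Chek1, the kinase of the replication checkpoint, had one of -0.99 (SE 0.29) and Fanca one of -1.13 (SE 0.33).

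Genes that process or are hit by 5-FU were lower past the limits in 3 of 28 cases, where 2.77% of all genes were. These were the ribonucleotide reductase subunits Rrm1 and Rrm2 and the folate enzyme Shmt1. Without combination replicate 3 the count was 2 of 28, where 1.98% of all genes were lower. Tyms, which encodes thymidylate synthase, was measured at 26.9, 28, 20, 21.6 and 21.4 CPM in vehicle and at 19.1, 10.8, 14, 16.8 and 17.6 CPM in the combination. The groups did not overlap, and the log2 fold change of -0.59 (SE 0.24, edgeR adjusted p = 0.198) was just short of 0.6 in size, so Tyms was not past the limits. Umps, which converts 5-FU to its nucleotide, had one of -0.54 (SE 0.16). Shmt2, the mitochondrial serine hydroxymethyltransferase of folate metabolism, had one of -0.56 (SE 0.16), with no overlap.

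p53 target genes lay on the other side, with 6 of 30 higher past the limits, 0 lower and a median log2 fold change of 0.33. Over all genes 7.49% were higher and 2.77% lower. Cdkn1a, the cyclin-dependent kinase inhibitor p21, was measured at 69.9, 85.2, 120, 94.7 and 148 CPM in vehicle and at 256, 236, 210, 219 and 178 CPM in the combination. All 5 combination libraries, replicate 4 included, lay above all vehicle libraries. The log2 fold change was 1.08 (SE 0.44, edgeR adjusted p = 0.2, DESeq2 adjusted p = 0.124). Phlda3, a p53-induced brake on AKT, was at 22.8 to 31.5 CPM in vehicle and at 55, 44.5, 53.4, 48.1 and 44.3 CPM in the combination, again without overlap (log2 fold change 0.86, SE 0.37). Without combination replicate 3 the values were 1.10 for Cdkn1a and 0.83 for Phlda3. The list then had 3 of 30 members higher past the limits, where 2.99% of all genes were. With all libraries DESeq2 called 0 of the 30 at an adjusted p under 0.05. Over all genes it called 2.04% higher and 0.944% lower.

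Mdm2, the ubiquitin ligase of p53, was not past the limits at 0.20 (SE 0.11), and neither was Bax at 0.29 (SE 0.23). In 5-FU alone Cdkn1a ran from 48.1 to 343 CPM and in KCL-HO-1i alone from 38.4 to 65.5 CPM. KCL-HO-1i alone was itself lower than vehicle for Cdkn1a, at -0.97 (SE 0.44, unadjusted p = 0.0367 in edgeR). Its median over the list was -0.24 against vehicle, with 2 of the 30 lower past the limits, where 0.329% of all genes were. The combination was higher than KCL-HO-1i by a log2 fold change of 2.05 (SE 0.45, unadjusted p = 0.000108 in edgeR), and 13 of the 30 targets were past the limits in that contrast (8 without combination replicate 3), where 4.22% of all genes were higher. Against 5-FU the Cdkn1a value was 0.78 (SE 0.44, unadjusted p = 0.0867 in edgeR) and 0 of the 30 were.

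Genes of cholesterol synthesis and uptake were lower past the limits in 8 of 23 cases and higher in 0, where 2.77% and 7.49% of all genes were. The median log2 fold change was -0.54. For 5 of the 23 all combination libraries lay below all vehicle libraries, as did 2.07% of all genes. Without both replicates 3 the lower count was 6, where 1.1% of all genes were lower. In replicates 1, 2, 3 and 5, 69.6%, 91.3%, 87% and 73.9% of the list lay below all vehicle libraries. In replicate 4 the share was 34.8%, where 21.5% of all genes lay below them. Idi1 (chromosome 13, 8885606 to 8892396), an isomerase that supplies isoprenoid units, was measured at 109, 147, 140, 96.7 and 140 CPM in vehicle and at 61.1, 42.3, 26.8, 70.5 and 57.5 CPM in the combination. The log2 fold change was -1.29 (SE 0.31, edgeR adjusted p = 0.114, DESeq2 adjusted p = 0.0113). Lss, lanosterol synthase, was at 35.7 to 45.8 CPM in vehicle and at 21.1, 22.4, 13.1, 34.8 and 28 CPM in the combination (log2 fold change -0.78, SE 0.23), without overlap. Pmvk and Fdps, of the mevalonate pathway, had log2 fold changes of -0.69 (SE 0.20) and -0.84 (SE 0.27), and their groups did not overlap either.

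In this list 10 of 23 genes were lower past the limits than in KCL-HO-1i and 1 than in 5-FU, where 5.2% and 1.79% of all genes were, and 5-FU alone gave 3 of 23 lower than vehicle, where 0.468% were. Idi1 was past the limits in both direct contrasts, with -0.86 against 5-FU (SE 0.31) and -1.41 against KCL-HO-1i (SE 0.32). The canonical sterol response element was found in 0 of the 16 windows of this list and in 22 of the 10701, which says only that its letters are not in these windows. CCAAT was present in 16 of the 16 (100%), against 42.5% of all windows.

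Other lower genes with no overlap are enzymes and signalling proteins. Plcb4, a phospholipase C, was measured at 37.4, 57.6, 42.1, 29.3 and 44 CPM in vehicle and at 12.7, 15.1, 7.93, 13.7 and 11.1 CPM in the combination, with a log2 fold change of -1.80 (SE 0.39, edgeR adjusted p = 0.0876). It was also past the limits against 5-FU at -1.33 (SE 0.39) and against KCL-HO-1i at -1.42 (SE 0.39). Asns, asparagine synthetase, was at 48.9, 65.3, 121, 60 and 86.4 CPM in vehicle and at 36.3, 35, 17.5, 44.7 and 37 CPM in the combination (log2 fold change -1.16, SE 0.26, edgeR adjusted p = 0.0876). Without vehicle replicate 3 the Asns value was -0.94. Asns and Chac1, which degrades glutathione, are targets of ATF4, and Chac1 also did not overlap (log2 fold change -1.21, SE 0.38). However, 3 of the 26 stress genes in all were lower and 1 was higher, where 2.77% and 7.49% of all genes were.

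Bckdk, the kinase that restrains breakdown of branched-chain amino acids, was at 137 to 194 CPM in vehicle and at 102, 111, 85.6, 114 and 90.6 CPM in the combination (log2 fold change -0.73, SE 0.18). Aldh18a1, of proline synthesis, was at 87.9 to 153 CPM and 52.9 to 86.7 CPM (log2 fold change -0.63, SE 0.16). Ak3, a mitochondrial adenylate kinase, was at 261 to 344 CPM and 138 to 231 CPM (log2 fold change -0.61, SE 0.15). Zbtb40, Smpdl3b, Sgsm3, Ifrd2 and Ascc3 complete the 12 lowest-p lower genes, at log2 fold changes of -0.76, -1.32, -0.66, -0.75 and -0.63. Without vehicle replicate 3 the values of Aldh18a1, Ak3, Sgsm3 and Ascc3 were -0.47, -0.58, -0.58 and -0.46, all short of 0.6 in size. Those of Bckdk, Zbtb40, Smpdl3b and Ifrd2 were then -0.68, -0.78, -0.96 and -0.65. Without combination replicate 3 Ak3 was at -0.50 and Sgsm3 at -0.5985, also short of 0.6 in size. All 12 were called lower by DESeq2 and by limma-voom at an adjusted p under 0.05. The genes were chosen from these same libraries, so the calls are not independent of the choice.

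Of the 12 higher genes chosen in the same way, 11 were called by DESeq2, which gave no adjusted p for Clec4n, and 9 by limma-voom. These calls too are from the libraries that the genes were chosen from. Besides those already named, Nab2, a corepressor of EGR transcription factors, was at 55.7 to 62.3 CPM in vehicle and at 104, 79.2, 102, 68.4 and 121 CPM in the combination (log2 fold change 0.69, SE 0.16). Lrig1, which restrains ErbB receptors, was at 51.7 to 82.4 CPM and 95.2 to 161 CPM (log2 fold change 0.75, SE 0.18). Rflna, a filamin regulator, was at 1.6 to 2.01 CPM in vehicle and at 22.8, 4.23, 4.23, 14 and 8.61 CPM in the combination (log2 fold change 2.54, SE 0.57). Dclk1, a kinase of microtubules, and Dchs2, a cadherin, had log2 fold changes of 3.46 and 3.53, with replicate 3 at 98.2 and 17.2 CPM and the other combination libraries at 4.78 to 16.9 and 0.528 to 1.63 CPM. Without replicate 3 the values were 1.80 and 1.54.

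Thra, the thyroid hormone receptor alpha, and Strada, a partner of the kinase LKB1, are on chromosome 11. Thra was at 24.5 to 40.3 CPM in vehicle and at 95, 56.6, 93.3, 50.5 and 62.6 CPM in the combination (log2 fold change 1.18, SE 0.24, edgeR adjusted p = 0.0876). Strada was at 11.8 to 14.7 CPM in vehicle and at 32.2, 16.8, 19, 26.7 and 21.8 CPM in the combination (log2 fold change 0.81, SE 0.18). On that chromosome 122 of 1139 tested genes were higher past the limits (10.7%), where 7.49% of all genes and 82 of 788 on chromosome 1 (10.4%) were, and between 110 and 120 Mb 34 of 99 were. In that window the median log2 deviation was 0.894 in combination replicate 4, 0.911 in replicate 5 and 0.322 in replicate 1, with 0.477 in vehicle replicate 4. Between 100 and 110 Mb, where Strada lies, it was 0.538 in combination replicate 1 and at most 0.118 in size in the other 9 libraries. Between 90 and 100 Mb, where Thra lies, it was at most 0.131 in any library. The protease inhibitor Timp2 and the ATP synthase subunit Atp5h, both past the limits, lie between 110 and 120 Mb. The part of these regions in the values of the genes named from them was not tested.

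**Figure D5:**
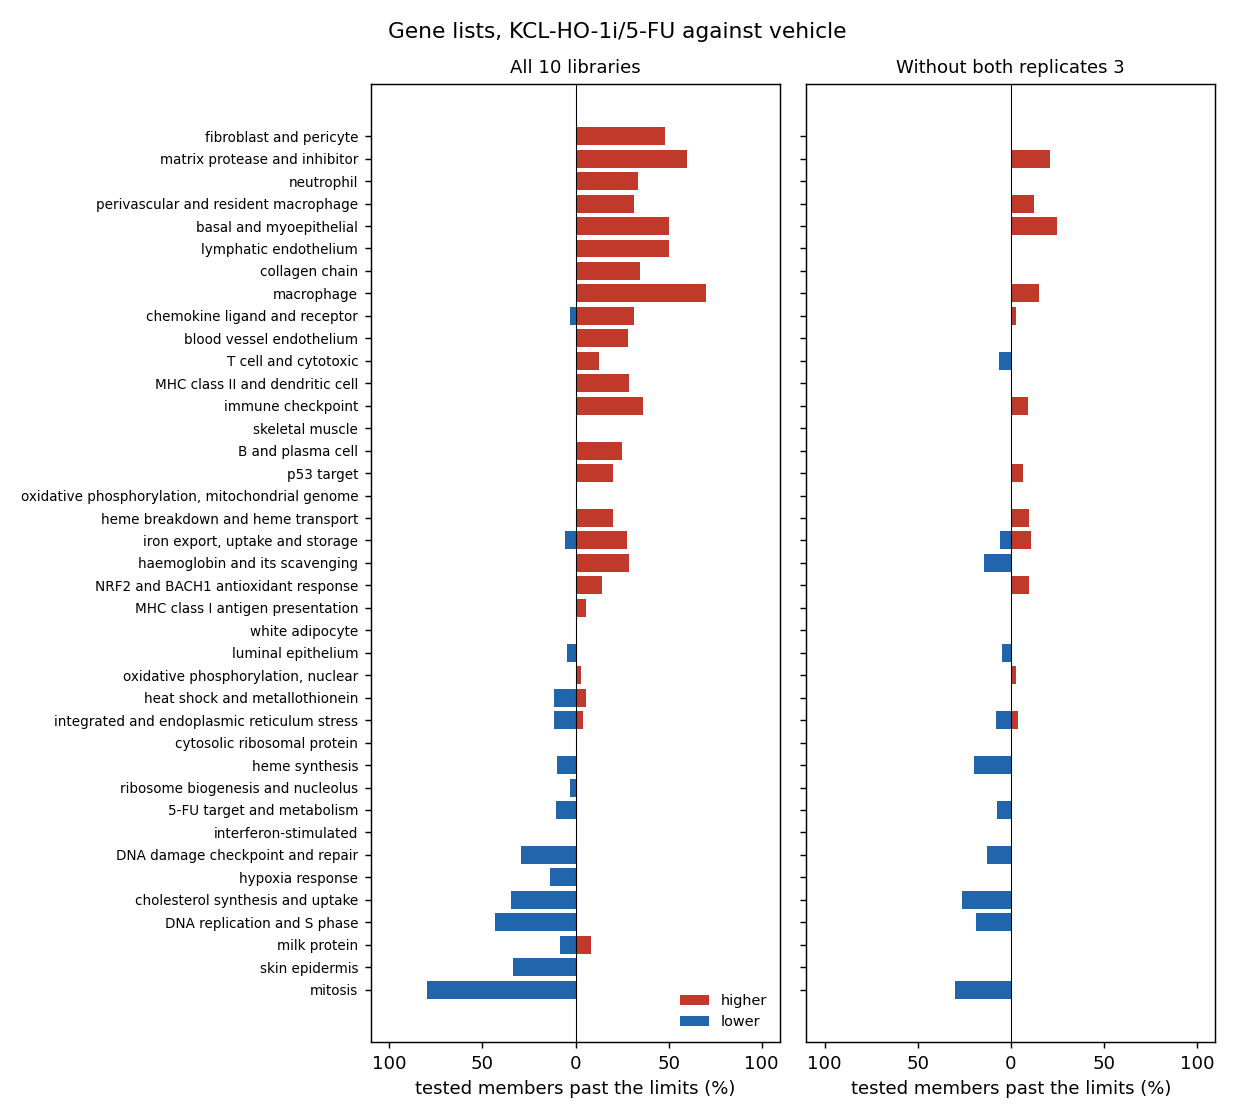
Bars give the percentage of tested members of each of 39 lists that were higher (red, right) or lower (blue, left) past the limits, with all 10 libraries on the left and without both replicates 3 on the right. Macrophage (14 of 20) and matrix protease (15 of 25) genes lead the higher side and mitosis (24 of 30) the lower side, and without both replicates 3 these are 3, 5 and 9.

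Of 47 cytosolic ribosomal protein genes 0 were past the limits, although in combination replicate 4 44 of them (93.6%) lay below all vehicle libraries, where 21.5% of all genes did, and of 36 nuclear genes of oxidative phosphorylation 1 was higher, Atp5h. Of 21 luminal epithelial genes 1 was lower past the limits, the progesterone receptor Pgr, where 2.77% of all genes were. Hypoxia genes were lower past the limits in 3 of 22 cases and in 0 without vehicle replicate 3, where 2.77% and 1.86% of all genes were. The same was seen for skin epidermis genes, with 3 of 9 and 0, and a median log2 fold change of -0.83 that was -0.12 without vehicle replicate 3. The mean level of the milk protein list differed by -1.09 on the log2 scale. Of its 12 genes 1 was lower past the limits and 1 higher, where 2.77% and 7.49% of all genes were. Csn1s1, a casein, was at 62.6 to 1045 CPM in vehicle and at 102, 223, 19.5, 14.7 and 38.8 CPM in the combination (log2 fold change -2.65, SE 1.25, edgeR adjusted p = 0.271), and the groups overlapped.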

How the data were processed

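Total RNA of the tumours was checked for integrity, made into directional libraries and sequenced by the authors. Per the study's methods and the submitters' processing notes, reads were checked with FastQC 0.11.9, aligned with STAR 2.7.9a, quantified with Salmon 1.9.0 and summed to genes with tximport, on the build mm10. The values deposited by the authors are estimated counts (expected counts) per gene for each library, made with Salmon and tximport, although the study's text calls them TPM, and 37.99% of them were not whole. They were rounded to whole numbers here.

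Of 21841 genes, 13663 passed edgeR's filterByExpr (minimum count 10), and the 8178 others held 0.05644% of the counts. edgeR 4.0.16 in R 4.3.3 was used for the quasi-likelihood test, with TMM scaling and the means of all 6 groups fitted over the 30 libraries, and p-values were adjusted by Benjamini-Hochberg over all genes tested. The SE of a log2 fold change was taken from the fold change and its F statistic. DESeq2 1.42.0 and limma 3.58.1 (voom with sample quality weights) were alternatives, and the fit was tested on simulated data. Each group of 5 came from 5 mice by the design text, and each library has a distinct animal code. No pair of replicates was a repeated library (lowest chi-square per degree of freedom 20.71 over 20 pairs).

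The genes named were a fixed set, the 12 higher and 12 lower genes of smallest p that were past the limits, did not overlap between groups and had a mean of at least 1 CPM in the higher group, and up to 4 members of each list by p. Other list members named as examples (such as Csf1r, Foxm1, Bub1, Prc1, Mdm2, Bax, Col1a1 and Krt14) were chosen after their values were seen. The members and the 39 lists were chosen with earlier results of these data known, and no list was tested as a set. Alternatives covered scaling, filters, tools, the replicate block and leaving out libraries, and the direct contrasts without combination replicate 3 were added after seeing the data.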

Additional observations from a re-analysis of the deposited data

Results flagged for a closer look

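In 156 groups of 5 libraries (named genes and list levels in each group), 20 had a highest or lowest library whose gap to the rest was above Dixon's critical value of 0.71 of the group's range. Chance gives about 1 in 20 such groups. Combination replicate 3 accounts for 12 of the 20 and vehicle replicate 3 for 5. All values here are log2 CPM, or their mean over a list.

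In combination replicate 3, Slc40a1 was at 7.97 against 4.62 to 5.53 in the other 4 combination libraries, Clec4n at 7.09 against 3.4 to 4.07, and Mmp13 at 7.58 against 3.64 to 4.73. Genes at their lowest there were Zbtb40 at 3.45 against 4.06 to 4.17, Asns at 4.14 against 5.14 to 5.49, Ak3 at 7.11 against 7.72 to 7.85, and Ifrd2 at 5.07 against 5.6 to 5.81. The same library had the highest mean level of the iron list at 7.19 against 6.43 to 6.56, of the antioxidant list at 6.3 against 5.76 to 5.82, of the matrix protease list at 5.64 against 3.42 to 3.97, and of the p53 target list at 5.1 against 4.78 to 4.87. Its luminal epithelium level was the lowest, at 5.99 against 6.57 to 6.79.

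In vehicle replicate 3, Smpdl3b was at 5.97 against 4.57 to 4.83 in the other vehicle libraries and Aldh18a1 at 7.26 against 6.46 to 6.64. Its mean hypoxia level was 7.8 against 6.2 to 6.63, its integrated and endoplasmic reticulum stress level 6.58 against 6.19 to 6.29, and its heat shock and metallothionein level 7.33 against 6.85 to 6.99. The 3 remaining values were Hmox2 in combination replicate 4 at 5.85 against 6.18 to 6.31, the skeletal muscle level in vehicle replicate 1 at 1.53 against -1.12 to -0.792, and Spic in vehicle replicate 4 at -1.59, where the other vehicle libraries had no reads.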

How the results depend on the processing

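The count of genes at an adjusted p under 0.05 was 0 in edgeR, and stayed 0 with RLE scaling, with every gene kept, with only genes of mean count 50 or more, with only the 10 libraries fitted and without both replicates 3. It was 408 in DESeq2 and 169 in limma-voom, and 0 to 186 when 1 library was left out, with 186 without combination replicate 4. The higher count of 1023 genes past the limits ran from 413 to 1171 and the lower count of 379 from 257 to 546 when 1 library was left out. Without both replicates 3, an alternative chosen after seeing the data, they were 254 and 151. The causes of these differences were not tested.

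Replicate numbers did not pair the samples. The correlations of same-numbered deviations were -0.03662, 0.05963, -0.1519, 0.09887 and 0.1298, and 0 of the 5 combination libraries correlated best with its own number. With the replicate block the adjusted count was 3.

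Over 180 named genes, 3040 of 3201 values kept their direction and side of the adjusted threshold, 142 passed it and 19 changed sign, and 656 of 702 list medians moved by less than the spread between replicates. No scaling moved the median of all genes by 0.1. Leaving out 1 library or both replicates 3 gave log2 fold changes that crossed 0 in 10 genes, from -0.0555 (without both replicates 3) to 0.16 for Hmox2, -1.26 to 0.24 (without vehicle replicate 4) for Lyve1, -1.49 to 2.12 (without vehicle replicate 1) for Jchain, -0.0373 to 1.92 for Btla, -0.23 to 0.96 for Ifit2, -0.48 to 1.65 for Pparg, -0.82 to 0.33 for Scd1, -0.37 to 0.65 for Flt4, -0.83 to 0.23 for Cldn4 and -4.25 to 0.13 for Krt6a. All but Lyve1 and Jchain crossed 0 only where a replicate 3 was left out. In limma-voom Jchain was 0.37, Scd1 0.21 and Flt4 -0.16. In the direct contrasts without combination replicate 3, also chosen after seeing the data, values above 0 turned to -0.0878 for Cxcl12 against 5-FU, and against KCL-HO-1i to -0.0705 for Hmox1, -0.29 for Ccl21a, -0.56 for Slc11a1 and -0.19 for Fth1. Genes near 3 reads, such as Spic, Ccl21a, Klrd1 and Lyve1, are limited by depth.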
